A study of Sus scrofa with 6 samples.

Results

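The translation factor genes of the pig ovarian follicle were followed on 6 Affymetrix porcine arrays. Probe sets were taken where the probe table of the array gave them 1 symbol of the EIF1 to EIF6, EEF1, EEF2, PABPC, ETF1 or GSPT1 families and where the signal was above 50 on 3 or more of the 6 arrays. Of 66 such probe sets outside the controls, 64 passed this level. They represent 43 genes and are 64 of the 19196 probe sets tested. The 2 that stayed under it were EIF1AY, with a signal of 1.27 to 5.91, and another EIF4EBP2 probe set, with 39.8 to 54.4. A further 2 probe sets carry both EIF4EBP3 and ANKHD1 and were left out, and so was 1 control probe set of EEF1A1. Of the 71 pig gene symbols of these families in the RefSeq table, 27 have no probe set with that symbol alone and were not analysed here, among them EEF2, EIF2S3, EIF5, EIF2AK1, EIF2AK3, EIF2AK4, ETF1 and GSPT1. The genes measured are initiation and elongation factors, together with proteins that share their family names, such as the kinase EIF2AK2, the methyltransferase EEF1AKMT1, the repressor EIF4EBP2 and the poly(A) binding proteins, and no release factor.

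Initiation factors bring the small ribosomal subunit and the initiator tRNA to the cap of a messenger RNA, scan to the start codon and join the large subunit. Elongation factors then deliver aminoacyl-tRNAs and move the ribosome along the message. Phosphorylation of eIF2 by stress-activated kinases blocks its recycling by eIF2B and slows initiation, and binding of eIF4E by its inhibitors does the same at the cap. Ribosomal proteins and the eEF1 subunits are encoded by messages that start with an oligopyrimidine tract and are controlled together through mTOR. In the ovulatory follicle, granulosa and theca cells stop dividing and turn to steroid and matrix synthesis after the LH surge.

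Each array held follicles over 5 mm from 1 sow. The 3 Chinese Taihu sows (Chinese Erhualian in the deposited labels, a strain of that group) came from a company farm and the 3 Large White sows from a university farm, so breed and farm cannot be told apart. All 6 were multiparous and received 1000 IU PMSG, which acts like FSH, then 500 IU hCG, which acts like LH, 80 h later, and were killed 30 to 38 h after hCG. No untreated sow was included, and no age is given in the sources used here. The value of a probe set is the normalized signal intensity of the authors, on a linear scale and brought to 1 level on all arrays, so that a change in the total RNA of a follicle cannot be seen in it. Fewer cells of a type and less RNA per cell cannot be told apart in such whole-follicle samples. Probe sets bind their targets with different strength, so bright and dim here describe the signal of a probe set and not the amount of one RNA against another.

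Chinese Taihu sow 1 stood apart from the other sows. Its log2 signals correlated with those of the other arrays at 0.834 to 0.887 over the 19196 probe sets (Pearson), against 0.907 to 0.967 among the other 5. The 7 surface epithelium and the 6 oviduct and cilium markers tested were all highest in this sow, and the 7 theca markers were all lowest. The 8 granulosa markers were mixed, with 3 lowest in this sow (INHA, FST and HSD17B1) and 2 highest (INHBA and CYP19A1). INHA, the alpha subunit of inhibin, had a signal of 446 there and 6510 to 10684 in the other 5 sows, and INHBA, a beta subunit, had 899 there and 233 to 387 in the others. Over the 64 translation factor probe sets alone, this sow correlated with the others at 0.949 to 0.984, against 0.955 to 0.994 among the other 5.

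On the 6 arrays the translation factors varied little. The highest signal of a probe set was 1.10 to 3.98 times its lowest, with a median of 1.54, against a median of 1.75 over all tested probe sets. The ratio was under 1.5 in 29 of the 64 (45.3%, against 31.3% of all tested) and over 2 in 9 (14.1%, against 38.1%). The median signal was 1417 for these probe sets and 286 for all tested. Dim probe sets vary more on such arrays, and the part of brightness in this was not tested. The steadiest were EIF3K, a small eIF3 subunit, and EEF1B2 and EEF1G, the exchange factor and scaffold of eEF1, with ratios of 1.10, 1.10 and 1.12. EIF2AK2, a second EIF3M probe set, a second EIF5A probe set and an EIF1AX probe set had the widest ranges, with 3.98, 3.80, 3.01 and 2.32.

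**Figure D1:**
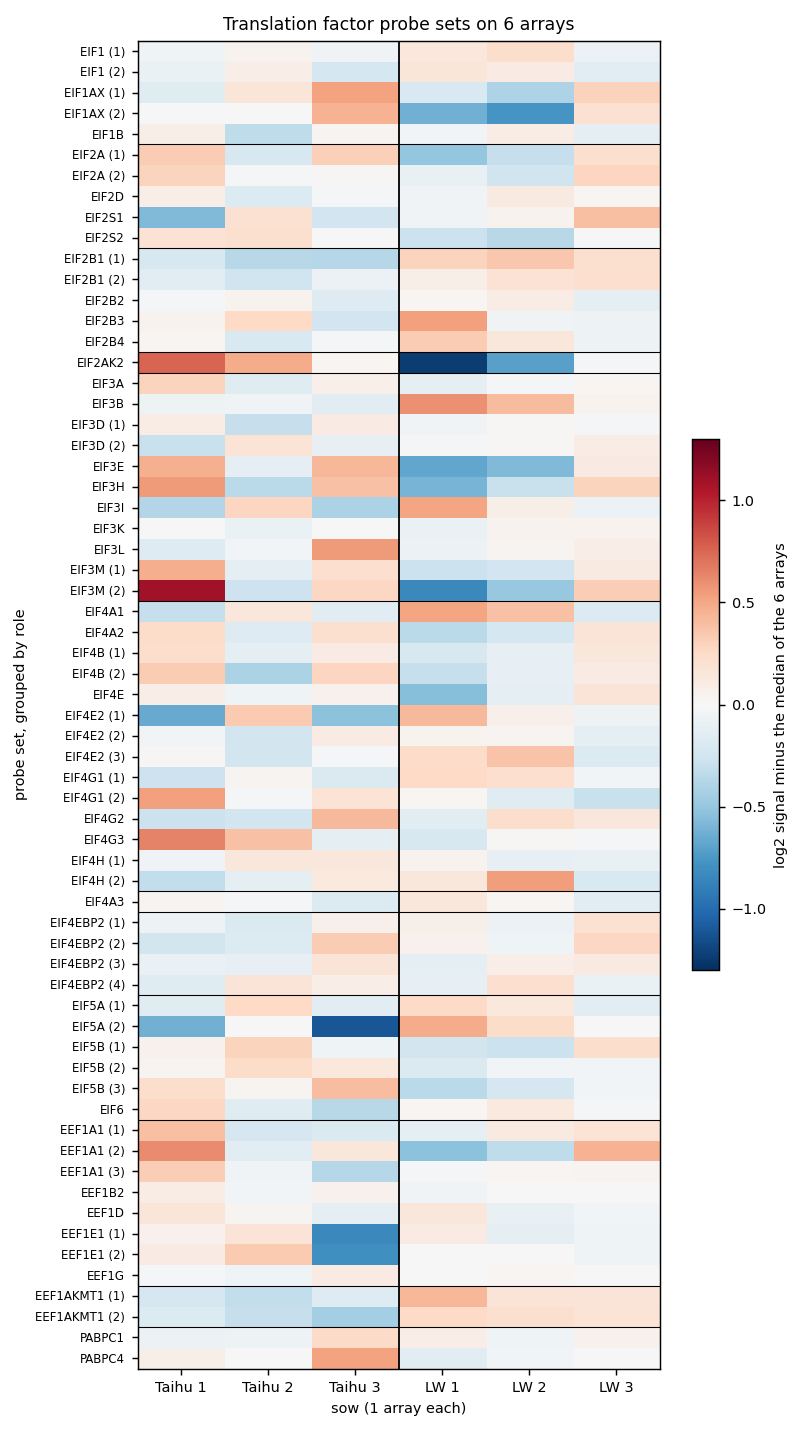
Signal of the 64 translation factor probe sets on each array, as log2 signal minus the median of the 6 arrays (colour), with columns for Chinese Taihu sows 1 to 3 and Large White (LW) sows 1 to 3 and lines grouped by role. Numbers in brackets count the probe sets of a gene from the brightest down. Most cells are pale, and EIF2AK2 shows the widest range, 3.98-fold.

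No translation factor probe set passed an adjusted p of 0.05 in the comparison of Chinese Taihu with Large White sows by limma, with the p-values adjusted over all tested probe sets. Over all 19196, 4 (0.0208%) did. The adjusted p of the 64 was 0.993 or higher. At an unadjusted p of at most 0.05, 6 probe sets of 5 genes were counted, or 9.38% of the 64 against 3.86% of all tested. The methods' t-test, run on the same log2 values, gave 7 of the 64 at that level (10.9%, against 4.41% of all tested) and 0 after adjustment. EIF2AK2 and EIF5A were not among these 7. EIF2AK2 and EIF5B were higher (2 probe sets, against 1.56% of all tested in that direction), and EIF2B1, EEF1AKMT1 and EIF5A were lower (4 probe sets, against 2.30%). The median log2 difference, Chinese Taihu minus Large White, was -0.04 over the 64 and 0.00 over all tested, and 57 of the 64 differed by less than 0.5. Of these 64 differences 29 were above 0 and 35 below. The SE of a difference was 0.08 to 0.44 on the log2 scale and the 95% interval reached a median of 0.47 to either side. The unadjusted count of 6 became 3 (0 higher) without Chinese Taihu sow 1, where 3.66% of all tested reached that level, 1 (0 higher) without Large White sow 1, with 3.52% of all tested, and 2 (0 higher) without Large White sow 2, with 1.94%. Without Large White sow 3 it was 8 (4 higher), with 4.78% of all tested.

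The signals of the breeds did not overlap in 9 probe sets of 6 genes, or 14.1% of the 64 against 9.10% of all tested. For 4 of them (EIF2AK2, EIF2S2 and 2 of EIF5B) the Chinese Taihu sows were higher, against 3.98% of all tested, and for 5 (2 each of EIF2B1 and EEF1AKMT1, and EIF3B) they were lower, against 5.12%. An exact permutation test of 3 arrays against 3, 2-sided, gives 0.1 for each of the 9, the smallest p it allows.

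**Figure D2:**
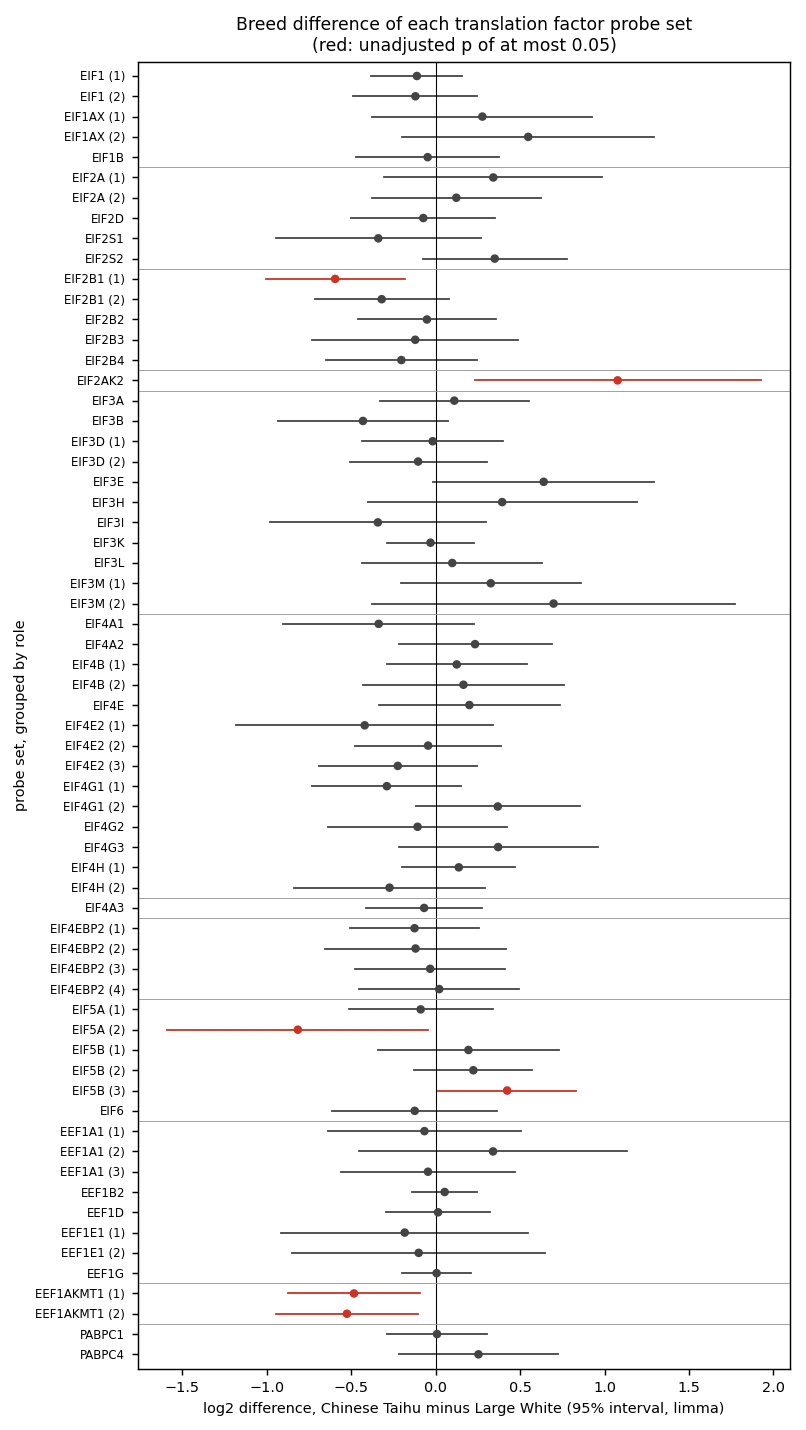
Log2 difference, Chinese Taihu minus Large White, for the 64 probe sets (points) with the 95% interval of the limma fit (lines), grouped by role. Red marks the 6 probe sets with an unadjusted p of at most 0.05, and none passes after adjustment over all tested probe sets.

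Among the factors around eIF2, EIF2B1 and EIF2AK2 reached the unadjusted level. EIF2B1, the alpha subunit of eIF2B, which takes part in sensing phosphorylated eIF2, had signals of 656, 592 and 585 in Chinese Taihu sows 1 to 3, against 924, 968 and 876 in Large White sows 1 to 3. Its means were 611 ± 39.3 (SD of 3 sows) and 923 ± 46.2, a log2 difference of -0.60 (SE 0.17, limma unadjusted p = 0.0118, adjusted p = 0.993). All 3 Chinese Taihu sows lay under all 3 Large White sows, and the difference stayed between -0.65 and -0.56, with an unadjusted p of 0.0196 to 0.0483, when any 1 sow was left out. The other EIF2B1 probe set had 336, 312 and 353 in Chinese Taihu sows and 392, 424 and 432 in Large White sows, again without overlap (log2 -0.32, SE 0.16, unadjusted p = 0.0965).

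The other eIF2B subunits measured, EIF2B2, EIF2B3 and EIF2B4, differed by -0.05, -0.12 and -0.20 on the log2 scale, and their breeds overlapped. EIF2B4, part of the regulatory core with EIF2B1 and EIF2B2, had 1397, 1194 and 1341 in Chinese Taihu and 1718, 1521 and 1306 in Large White sows. All 5 eIF2B probe sets, 2 of them of EIF2B1, had a lower mean in Chinese Taihu sows, where 9547 of the 19196 tested were lower. Of the 5, 1 reached the unadjusted level, against 3.86% of all tested.

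EIF2AK2, the double-stranded RNA kinase PKR, which phosphorylates eIF2 and is induced by interferon, had signals of 300, 248 and 181 in Chinese Taihu sows 1 to 3, against 75.4, 109 and 174 in Large White sows 1 to 3. The means were 243 ± 59.8 and 120 ± 50.4, a log2 difference of 1.08 (SE 0.35, 95% interval 0.23 to 1.92, limma adjusted p = 0.993). The lowest Chinese Taihu sow and the highest Large White sow lay close together, and the sows of each breed ranged widely. The unadjusted p was 0.0204, and it was 0.0532 to 0.0578 when Chinese Taihu sow 1, Chinese Taihu sow 2, Large White sow 1 or Large White sow 2 was left out. It was 0.0557 with the replicate block and 0.0584 by the methods' t-test. With 1 sow left out the difference was 0.79 to 1.39. It was the 1 member with a difference of at least 1 on the log2 scale, where 533 of the 19196 tested probe sets had that.

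EIF2S2, the beta subunit of eIF2, had signals of 1899, 1915 and 1674 in Chinese Taihu sows, against 1371, 1300 and 1652 in Large White sows. These did not overlap (log2 0.35, SE 0.18, unadjusted p = 0.0932), but Chinese Taihu sow 3 and Large White sow 3 were almost level. EIF2S1, the alpha subunit that carries the regulatory phosphorylation site, had 1289, 2195 and 1615 in Chinese Taihu sows and 1853, 1988 and 2514 in Large White sows, which overlapped (log2 -0.34, 95% interval -0.95 to 0.27). EIF2A and EIF2D, which can bring a tRNA to the start codon without eIF2, differed by 0.34 and 0.12 (2 probe sets of EIF2A) and by -0.07.

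**Figure D3:**
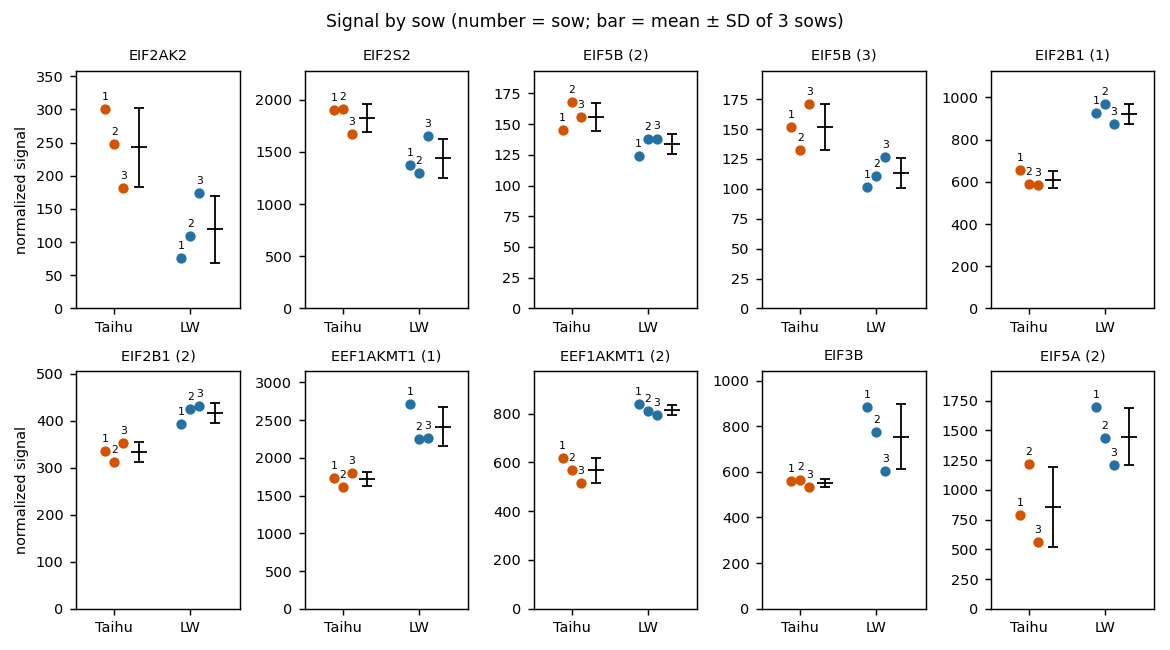
Normalized signal (linear axis from 0) of the 9 probe sets without overlap between the breeds and of the second EIF5A probe set. Points are single sows, numbered 1 to 3, with Chinese Taihu (orange) left of Large White (LW, blue), and bars give the mean ± SD. EIF2B1 and EEF1AKMT1 show the widest gaps between the breeds for their spread, and EIF2AK2 and EIF2S2 nearly touch.

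EEF1AKMT1, a lysine methyltransferase that modifies eEF1A in human cells, was lower in Chinese Taihu sows on both of its probe sets. The brighter had 1738, 1619 and 1799 in Chinese Taihu sows 1 to 3, against 2710, 2256 and 2265 in Large White sows 1 to 3 (log2 -0.48, SE 0.16, limma unadjusted p = 0.0223, adjusted p = 0.993). The dimmer had 618, 568 and 515 in Chinese Taihu sows and 839, 809 and 796 in Large White sows (log2 -0.53, SE 0.17, unadjusted p = 0.0218). Neither overlapped, and the differences were -0.53 to -0.40 and -0.59 to -0.46 with 1 sow left out, with unadjusted p-values of 0.0422 to 0.0732 and 0.0284 to 0.0750. Both measure 1 gene in the same sows and are not independent of each other.

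Of the factors that join the ribosomal subunits, EIF5B, the GTPase of that step, had a higher mean in Chinese Taihu sows on all 3 probe sets. The dimmest had 152, 132 and 171 in Chinese Taihu sows, against 102, 111 and 126 in Large White sows (log2 0.42, SE 0.17, unadjusted p = 0.0451), and with 1 sow left out the p was 0.0347 to 0.138. The second had 145, 168 and 155 in Chinese Taihu sows, against 124, 138 and 138 in Large White sows (log2 0.22, unadjusted p = 0.172), and on the brightest the breeds overlapped (log2 0.19, 95% interval -0.34 to 0.73). EIF6, which keeps the large subunit from joining too early, differed by -0.12.

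EIF5A, the hypusine-containing factor that helps the ribosome through difficult peptide bonds, gave different values on its 2 probe sets. The brighter had 4718, 6300.4 and 4796 in Chinese Taihu sows and 6255, 5784 and 4742 in Large White sows (log2 -0.09, 95% interval -0.52 to 0.34). The dimmer had 788, 1219 and 563 in Chinese Taihu sows, against 1695, 1437 and 1212 in Large White sows (log2 -0.82, SE 0.32, unadjusted p = 0.0414), and Chinese Taihu sow 2 reached into the Large White range. With 1 sow left out its difference was -1.11 to -0.55. The unadjusted p was 0.00716 without Chinese Taihu sow 2 but 0.0535 to 0.119 without any of the other 5, and 0.0811 by the methods' t-test. The 0.73 between the differences was the widest gap among the 16 genes with several probe sets. For 12 of these 16 genes all probe sets had differences of 1 sign, and for EEF1A1, EIF4EBP2, EIF4G1 and EIF4H they had both.

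In eIF3, the scaffold that holds the small subunit and the message together, 6 of 11 probe sets had a higher and 5 a lower mean in Chinese Taihu sows, and none of the 11 reached an unadjusted p of 0.05. EIF3B, a core subunit, had 560, 566 and 533 in Chinese Taihu sows, against 885, 775 and 604 in Large White sows, without overlap (log2 -0.43, SE 0.21, unadjusted p = 0.0811). EIF3E had 6115, 4091 and 5952 in Chinese Taihu sows, against 2762, 2981 and 4784 in Large White sows (log2 0.64, SE 0.27, unadjusted p = 0.0539). The breeds overlapped there, since Large White sow 3 lay above Chinese Taihu sow 2. With 1 sow left out the difference was 0.49 to 0.89, with an unadjusted p of 0.0118 (without Large White sow 3) and 0.0256 (without Chinese Taihu sow 2) and of 0.137 to 0.157 without any of the other 4, and the methods' t-test gave 0.109. The brighter EIF3M probe set differed by 0.33 (SE 0.22, limma unadjusted p = 0.187). The second EIF3M probe set had 1772, 688 and 1005 in Chinese Taihu sows, against 467, 593 and 1038 in Large White sows (log2 0.70, SE 0.44). With 1 sow left out that difference was 0.33 to 1.02, lowest without Chinese Taihu sow 1. EIF3D, which can bind the cap, differed by -0.02 and -0.10 on its 2 probe sets, EIF3K by -0.03, EIF3L by 0.10 and EIF3A by 0.11.

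The cap-binding complex eIF4F and its cofactors gave 14 probe sets, 7 with a higher and 7 with a lower mean, and none of the 14 reached an unadjusted p of 0.05. The helicase EIF4A1 had 2335, 3172 and 2601 in Chinese Taihu and 4093, 3742 and 2539 in Large White sows (log2 -0.34, 95% interval -0.90 to 0.23). Its paralog EIF4A2 had 7894, 5954 and 7683 in Chinese Taihu and 5219, 5705 and 7475 in Large White sows (log2 0.23, 95% interval -0.22 to 0.69). EIF4E, which binds the cap, differed by 0.20 (95% interval -0.34 to 0.74). EIF4E2, a cap-binding relative that represses translation, differed by -0.42 to -0.05 over 3 probe sets. The scaffolds EIF4G1 (-0.29 and 0.37), EIF4G2 (-0.11), which lacks the eIF4E-binding part, and EIF4G3 (0.37) all overlapped between the breeds. EIF4B, which stimulates the helicase, differed by 0.12 and 0.16 on its 2 probe sets, and EIF4H, a related cofactor, by 0.14 and -0.27. EIF4EBP2, a repressor of eIF4E under mTOR, differed by -0.13 to 0.02 on its 4 probe sets. EIF4A3, a helicase of the exon junction complex and not of initiation, differed by -0.07.

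The scanning factor EIF1, which keeps the ribosome from starting at a wrong codon, differed by -0.11 and -0.12 on its 2 probe sets, and EIF1B, its close relative, by -0.05. EIF1AX, its partner in scanning, had 953, 940.2 and 1292 on 1 probe set in Chinese Taihu sows and 615, 557 and 1082 in Large White sows (log2 0.55, SE 0.31, unadjusted p = 0.125). The 2 highest were sow 3 of either breed. The other EIF1AX probe set differed by 0.28.

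EEF1B2 and EEF1G had the narrowest intervals of the 64, while those of the EEF1A1 and EEF1E1 probe sets were wider than the median. EEF1B2 had 14289, 13022 and 13870.0 in Chinese Taihu and 12953, 13295 and 13424 in Large White sows (log2 0.05, 95% interval -0.14 to 0.25). EEF1G had 11944, 11592 and 12931 in Chinese Taihu and 11975, 12233 and 12083 in Large White sows (log2 0.01, 95% interval -0.20 to 0.21). EEF1D, a further exchange factor, differed by 0.01 (95% interval -0.29 to 0.32). The 3 EEF1A1 probe sets of the rule were dim, with mean signals of 248 to 746 in Chinese Taihu and 233 to 769 in Large White sows, and the control probe set for the middle of that transcript, left out by the rule, had 17041 to 18802 in Chinese Taihu and 16406 to 17662 in Large White sows (log2 0.07, exact permutation p = 0.3, 2-sided). What the dim probe sets detect was not tested. EEF1E1, a scaffold protein of the tRNA synthetase complex rather than an elongation factor, was lowest in Chinese Taihu sow 3 on both probe sets, with 387 against 637 to 773 in the other 5 sows on the brighter. PABPC1, the main cytoplasmic poly(A) binding protein, differed by 0.01 (95% interval -0.29 to 0.31), and PABPC4 by 0.25 (95% interval -0.22 to 0.73).

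Some of these genes followed an order of the sows that crossed the breeds. For 15 probe sets of 12 genes the 3 highest signals came from Chinese Taihu sows 1 and 3 and Large White sow 3 (23.4% of the 64, against 12.4% of all tested). They were EIF3A, EIF3E, EIF3H, both EIF3M, both EIF2A, EIF4A2, both EIF4B, EIF4E, EIF1AX, EEF1B2, PABPC4 and 1 EEF1A1 probe set. For 9 probe sets of 7 genes the 3 highest came from the other sows, Chinese Taihu sow 2 and Large White sows 1 and 2. At 14.1% of the 64 against 11.2%, this was near the share of all tested. The 9 were both EIF1, EIF2B2, EIF3I, EIF4A1, EIF4E2, EIF4G1 and both EIF5A. EIF3H, an eIF3 subunit, had 4088, 2179 and 3632 in Chinese Taihu and 1836, 2277 and 3413 in Large White sows (log2 0.39, SE 0.33). EIF3I, another subunit, had 1687, 2666 and 1646 in Chinese Taihu and 3128, 2319 and 2081 in Large White sows (log2 -0.34, SE 0.27). Of the 11 eIF3 probe sets, 5 probe sets of 4 genes followed the first order (against 12.4% of all tested). The opposite order was followed by 1, that of EIF3I, which is near the share of all tested (11.2%). EIF4A1 and EIF4A2 parted in the same way. The order was picked after the values were seen and was given no test.

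**Figure D4:**
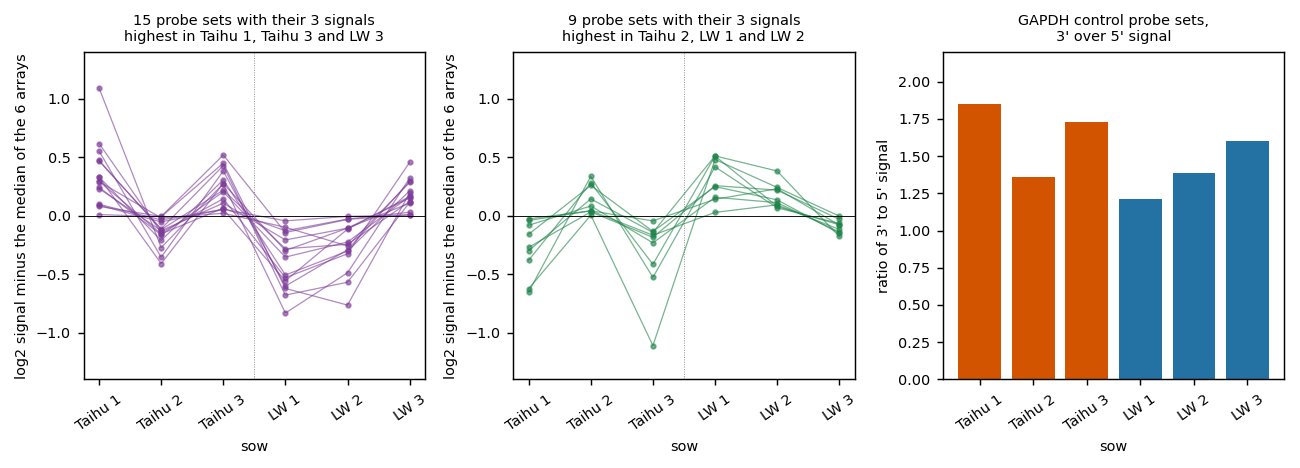
Left and middle, the 15 and the 9 probe sets with a shared order of the sows, as log2 signal minus the median of the 6 arrays, 1 line per probe set. They are 23.4% and 14.1% of the 64 translation factor probe sets, against 12.4% and 11.2% of all tested. Right, ratio of the 3 prime to the 5 prime control signal of GAPDH in each sow, with Chinese Taihu in orange and Large White (LW) in blue. The GAPDH ratio is 1.60 to 1.85 in the sows that are high on the left and 1.21 to 1.39 in the others. The ratio of actin, not drawn, did not follow this order, and that of EF1A, not drawn either, divided the sows with the opposite sign.

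Some control and marker signals were set beside this order. The ratio of 3 prime to 5 prime signal of GAPDH, a control of RNA integrity, was 1.85, 1.36 and 1.73 in Chinese Taihu sows 1 to 3 and 1.21, 1.39 and 1.60 in Large White sows 1 to 3. That of actin was 2.10, 2.66 and 1.96 in Chinese Taihu and 2.13, 1.50 and 1.72 in Large White sows, and that of EF1A 0.989, 1.08 and 0.995 in Chinese Taihu and 1.08, 1.01 and 0.984 in Large White sows. The actin ratio did not follow the order. The EF1A ratio divided the sows in the same way but with the opposite sign, at or under 0.995 in Chinese Taihu sows 1 and 3 and Large White sow 3 and at 1.01 or above in the other 3. The 7 theca markers include the steroid synthesis genes STAR and CYP11A1. Granulosa cells too turn to steroid synthesis after the LH surge, so the list does not mark theca cells alone. Its genes had medians of -4.62, 2.02 and -0.52 in Chinese Taihu and 0.87, 0.10 and 0.07 in Large White sows, as log2 signal minus the median of the 6 arrays. Their 3 highest signals were in Chinese Taihu sow 2 and Large White sows 1 and 2 for CYP17A1, CYP11A1 and HSD3B1, while for LHCGR, INSL3, STAR and TCF21 Large White sow 3 was among the 3 highest. The surface epithelium markers had medians of 4.10, -1.02 and -0.35 in Chinese Taihu and 0.00, -0.01 and 1.17 in Large White sows, so that Chinese Taihu sow 3 was not high there, and the oviduct and cilium markers 5.56, -0.32 and -0.24 in Chinese Taihu and 0.01, -0.29 and 2.37 in Large White sows. The theca markers' summed signal was 541 to 43536 in Chinese Taihu and 12146 to 38787 in Large White sows. The part of RNA integrity and of cell composition in the order was not tested. With Chinese Taihu sow 1 left out, 19 of the 64 had their 2 highest signals in Chinese Taihu sow 3 and Large White sow 3, or 29.7%, against 19.7% of all tested.

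Of the 7 related lists, the ribosomal protein, tRNA synthetase and mTORC1 lists had the largest shares in 1 of the 2 sets of sows. The lists of 4 to 11 genes, mTORC1 among them, are too small for their shares to be judged. Of 59 ribosomal protein genes, 21 (35.6%) had their 3 highest signals in Chinese Taihu sows 1 and 3 and Large White sow 3, and 0 in the other 3 sows. Of 17 genes of the cytosolic tRNA synthetase complexes, 1 had its 3 highest signals in that first set of sows and 8 (47.1%) in the other 3. In the mTORC1 pathway, which senses amino acids and growth factors, 0 of 10 genes had them in the first set and 4 (40.0%) in the other. The counts were 1 and 2 of 8 mitochondrial translation factors, 1 and 0 of 6 partners of PABP and eIF4A, 0 and 1 of 4 genes that modify eIF5A or eEF2, and 1 and 2 of 11 stress response genes. Among all tested probe sets the shares were 12.4% and 11.2%.

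Between the breeds, 4 of the 56 genes in these lists other than ribosomal proteins reached an unadjusted p of 0.05. Over all tested probe sets 3.86% did. None of the 56 reached an adjusted p of 0.05 by limma. Of the 59 ribosomal protein genes, 1 reached the unadjusted level, with a higher signal in Chinese Taihu sows, and 0 the adjusted one. ATF4, the transcription factor whose translation rises when eIF2 is phosphorylated, had 2631, 2258 and 3377 in Chinese Taihu sows, against 3380.4, 4918 and 3891 in Large White sows (log2 -0.56, SE 0.22, adjusted p = 0.993). These did not overlap, though Chinese Taihu sow 3 and Large White sow 1 were level. The other 10 stress response genes did not reach the level and had differences of both signs, from -0.42 for ASNS (95% interval -1.06 to 0.22) to 0.48 for PSAT1 (95% interval -0.24 to 1.20), both amino acid synthesis genes that ATF4 activates. DDIT3, ATF3 and PPP1R15A, further genes of that response, differed by -0.24, 0.02 and 0.26. Of the 11 stress response genes 0 were higher and 1 lower at the unadjusted level, with a median of -0.19.

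LAMTOR5, a subunit of the Ragulator that anchors mTORC1 at the lysosome, had 2879, 3415 and 2888 in Chinese Taihu sows, against 4147, 4877 and 3516 in Large White sows (log2 -0.44, SE 0.17), and was the 1 of 10 mTORC1 genes at that level. DPH3, needed for the diphthamide of eEF2, was the 1 of 4 genes that modify eIF5A or eEF2, with 246, 385 and 295 in Chinese Taihu and 538, 429 and 412 in Large White sows (log2 -0.59, SE 0.23). TOB1, which binds PABPC1 and recruits deadenylases, had 1593, 1736 and 891 in Chinese Taihu and 906, 707 and 838 in Large White sows (log2 0.73, SE 0.30), and was the 1 of 6 partners of PABP and eIF4A. Of 17 tRNA synthetase genes and of 8 mitochondrial translation factors, 0 reached the level. FARSA, a subunit of the phenylalanine enzyme, and MRRF, which recycles mitochondrial ribosomes, had the smallest p of these lists, with log2 differences of -0.60 (SE 0.30) and -0.47 (SE 0.20). The 4 genes became 0 without Chinese Taihu sow 1 or without Large White sow 2, and 1 without Large White sow 1.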

How the data were processed

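The deposited table holds 1 normalized signal intensity per probe set and array, on a linear scale. The authors made these intensities with the MAS 5.0 algorithm (MAS5 version 2.3.1 in the submitters' processing notes), scaled each array to 500 and normalized the arrays with the invariant set method of dChip. Arrays were grouped by the breed in the deposited labels. Controls (188 probe sets) were left out of the fit. Signals were floored at 1 and log2 transformed. Of 23935 probe sets, the 19196 above 50 on 3 or more arrays were fitted with limma 3.58.1 in R 4.3.3, with breed as the term and a variance trend, 2-sided. P-values were adjusted by Benjamini and Hochberg over all 19196. The fit was run beforehand on simulated signals in which known genes differed. Exact permutation tests and summaries were made with scipy 1.17.1 and pandas 2.3.3 (Python 3.11.15).

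Gene symbols are those of the platform annotation. Of the 66 probe sets with 1 symbol, 65 matched the RefSeq table by gene number, all with the same symbol. In the related lists the brightest probe set stood for a gene, and the list of ribosome rescue factors had no tested probe set with 1 symbol. Named were the brightest and dimmest gene of each role, the 8 probe sets with the smallest p, the 4 with the largest difference in either direction, the 4 with the widest range, paralogs, and subunits of eIF2B and eIF3. Other values, such as those of the order of the sows, were chosen after they were seen. The members and the lists were chosen with earlier results of these data known. The replicates are separate sows by the labels. Alternatives were 2 other normalizations, 2 filters, 2 offsets, a constant prior variance, array weights, a replicate block, the methods' t-test, each array left out and the brightest probe set of each gene. The number of arrays limits the precision. Present calls and RT-PCR values were not analysed here.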

Additional observations from a re-analysis of the deposited data

How the results depend on the processing

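The count of 0 translation factor probe sets at an adjusted p below 0.05 was the same under all 17 alternatives run, leaving out each array included, and the unadjusted count of 6 ran from 1 to 8 with an array left out. It was 3 of 43 with the brightest probe set of each gene (1 higher and 2 lower), where 3.86% of all tested reached that level. Under the others it was 5 to 7. Those with a higher signal in Chinese Taihu sows, 2 of the 6, numbered 1 under quantile normalization and a constant prior variance (EIF2AK2) and 1 under the replicate block (EIF3E), and 0 to 4 with an array left out, and those with a lower signal 1 to 4. Under the block the unadjusted p was 0.0392 for EIF3E, 0.0557 for EIF2AK2 and 0.0611 for EIF5B. The 9 probe sets without overlap were 5 of 43 with the brightest probe set of each gene, against 9.10% of all tested. They were 10 to 29 with an array left out, where fewer arrays make a lack of overlap more common (13.1% to 25.7% of all tested). Without Large White sow 3 they were 29 of the 64 (45.3%, against 21.3% of all tested). Without Chinese Taihu sow 2 they were 26 (40.6%, against 25.7% of all tested). The median difference was -0.025 to 0.010 with an array left out. Over all tested probe sets the adjusted count of 4 was 11 with array weights, 0 with the replicate block or the methods' t-test, 5 with signals under 32 set to 32 and 2 to 4 with an array left out. The 13 probe sets with the smallest p, the largest differences, the widest ranges or no overlap all kept their direction under the 10 other alternatives and with any array left out. This was largely fixed beforehand. The filters, the constant prior variance, the replicate block and the methods' t-test leave the log2 difference itself unchanged. For the 9 without overlap, leaving out a sow cannot reverse it. The 4 genes of the related lists became 2 under quantile normalization, 1 under median scaling and the replicate block, and 0 to 6 with an array left out. The cause was not tested. Same-numbered sows were not treated as pairs in the main fit. Their deviations from their breed means correlated at -0.17, -0.14 and 0.27, and 3 such values cannot settle whether the numbers pair the sows. A replicate block gave 5 of the 64 at the unadjusted level and 0 at the adjusted. The shared order of the sows was examined under alternatives chosen after the data were seen. Chinese Taihu sows 1 and 3 and Large White sow 3 were highest for 17 probe sets under quantile normalization (26.6%, against 11.6% of all tested). Under median scaling this number was 12 (18.8%, against 9.85%), and it was 15 as deposited. The other 3 sows were highest for 8 (12.5%, against 12.4%) and 10 (15.6%, against 15.0%), and for 9 as deposited. Under both normalizations this second group was near the share of all tested.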

Other observations

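Outside the family names used here, 7 probe sets carry the older symbol EF1ALPHA, the elongation factor that delivers aminoacyl-tRNA, and the values given were chosen after they were seen. The brightest had signals of 17742, 16692 and 18533 in Chinese Taihu sows 1 to 3, against 16656, 15977 and 16938 in Large White sows 1 to 3 (log2 0.09, exact permutation p = 0.2, 2-sided). One with 2541, 2837 and 3329 against 2144, 2232 and 2321 did not overlap (log2 0.37). Nor did one with 3006, 2348 and 2476 against 2165, 2336 and 2284 (log2 0.20). Both had an exact permutation p of 0.1, the smallest possible, and 9.10% of all tested probe sets had no overlap. On the others the breeds overlapped. Another had 5120.2, 2933 and 678 in Chinese Taihu sows, against 793, 816 and 748 in Large White sows. It was high in Chinese Taihu sows 1 and 2 alone, and the exact permutation p was 0.4 (2-sided). A pair of probe sets had their 3 highest signals in Chinese Taihu sow 2 and Large White sows 1 and 2, the brighter with 973, 1884 and 692 in Chinese Taihu sows and 1777, 1793 and 785 in Large White sows.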
